A study of Mus musculus with 6 samples.

Results

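The genes described here are 10 genes of pulmonary surfactant and of the alveolar type 2 (AT2) cell, the cell that makes it, and they were chosen by symbol from the 34745 genes of the table. They comprise the surfactant proteins Sftpa1, Sftpb, Sftpc and Sftpd, the lamellar body and lipid genes Abca3, Lamp3 and Lpcat1, the protease Napsa, the phosphate transporter Slc34a2 and the transcription factor Nkx2-1. All 10 symbols were found in the table, 7 of the genes were counted in every library, 6 passed the filter on low counts and were tested, and 2 were at 0 counts in all 6 libraries. The samples are 2 groups of 3 RNA-seq libraries of MLE-12, a mouse lung epithelial line, one transfected with an NR4A1 overexpression plasmid based on pCMV-SPORT6 and the other, the vector control, with pCMV-SPORT6 itself. MLE-12 is an immortalized line that came from lung tumours of mice carrying the SV40 large T antigen under the human surfactant protein C promoter, so that both groups carry that transgene. The question put to these genes was whether their transcripts are present in MLE-12 cells and whether their levels differ with the nuclear receptor NR4A1 in excess. Nothing in the labels says whether the 3 libraries of a group came from separate cultures, so the p-values measure the spread between these libraries, which may be technical.

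Surfactant is a film of phospholipid and protein that lowers surface tension at the air-liquid interface and keeps alveoli open. AT2 cells make its main lipid, dipalmitoyl phosphatidylcholine, and pack it with the small hydrophobic proteins SP-B and SP-C into lamellar bodies, which are secreted into the alveolar space. The larger collectins SP-A and SP-D bind microbes and regulate surfactant uptake. The transcription factor NKX2-1, together with forkhead and other factors, binds the promoters of surfactant genes and activates them, and loss of SP-B or ABCA3 leads to respiratory failure at birth.

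Promoter sequence was given for 7 of the 10 genes (RefSeq, GRCm38.p6, 250 bases before to 50 bases after the start site), and not for Sftpc, Sftpd and Napsa. The windows were searched on both strands for TCAAG, the core of the site that NKX2-1 binds, for AAGGTCA, the site that NR4A1 binds as a monomer, and for TGTTTAC, a forkhead core. TCAAG stood in 40.7% of all 32851 promoter windows of this length, AAGGTCA in 4.72% and TGTTTAC in 3.65%. The windows of Sftpb, Nkx2-1 and Sftpa1 each held 2 copies of TCAAG. Of the 7 genes, Sftpa1 alone held AAGGTCA, overlapping one of its TCAAG matches on the same strand, and Lamp3 alone held TGTTTAC. The windows of Abca3, Lpcat1 and Slc34a2 held none of these letter strings. Stretches of 30 bases are shown for the genes that held a match, read on the strand of the gene with the match in capitals. A match in capitals that reads as the reverse complement lies on the other strand, and these matches describe the sequence only.
Sftpb, match ending 95 bases before the start (chr6:72304499-72304528, plus strand): cctggagggctcTCAAGacacaggcaaaca
Sftpb, match ending 10 bases before the start (chr6:72304584-72304613, plus strand): agagcccatgacTCAAGtagggtactaagc
Nkx2-1, match ending 242 bases before the start, with the second copy on the other strand in lower case after it (chr12:56537129-56537158, minus strand): aaaaTCAAGaagcctccttgactggccgcc
Sftpa1, AAGGTCA on the other strand, ending 229 bases before the start (chr14:41131542-41131571, plus strand): agaatagagggTGACCTTgacaagagagag
Lamp3, TGTTTAC ending 86 bases before the start (chr16:19706439-19706468, minus strand): gaagaggtaagTGTTTACtttctcactatg

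The libraries held between 15019038 and 17574340 counts, so that 3 counts of a gene, taken as the smallest amount a library can show, corresponded to between 0.171 and 0.200 CPM (the count scaled by the library total). This limit covers counting error alone, while the 95% intervals of fold changes given here also hold the spread between libraries. Nr4a1 itself had 50660, 60093 and 68555 counts with NR4A1 overexpression and 428, 510 and 463 with the vector, as the labels say. NR4A1 overexpression replicate 2 stood apart from the other 5 libraries in genes of other cell types, with a summed FPKM (fragments counted, scaled to gene length and library total) of 6 smooth muscle markers of 181.3 against 0.504 to 1.52 in the others, and values that rest on it are given beside those of the other libraries. In edgeR's quasi-likelihood test with Benjamini-Hochberg adjustment, a gene was called where its levels differed at least 2-fold with an adjusted p below 0.05. In bulk RNA, fewer cells of a type and less RNA per cell cannot be told apart.

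MLE-12 cells held a partial set of AT2 transcripts, with Sftpc far above the other surfactant proteins. Averaged over the 6 libraries, the level of Sftpc was 90.1 FPKM ± 9.57 (SD, n = 6), higher than that of 97.9% of the genes with any count. Nkx2-1 followed with 23.0 ± 3.42 FPKM, Lpcat1 with 15.6 ± 3.30, Abca3 with 11.2 ± 0.451 and Sftpb with 5.41 ± 0.784. Napsa, with 0.648 ± 0.244 FPKM, stayed below 1 FPKM in every library. The ranges of neighbours in this order did not overlap down to Napsa, except that Lpcat1 was above Abca3 in 5 of 6 libraries and below it in NR4A1 overexpression replicate 2. Against Sftpb, Sftpc stood 16.6 to 20.6 times higher in FPKM in the NR4A1 overexpression libraries and 12.0 to 17.9 times higher in the vector controls. These comparisons between genes are per length, with lengths implied by the deposited values that ran from 804 bases for Sftpc to 11000 bases for Abca3.

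**Figure D1:**
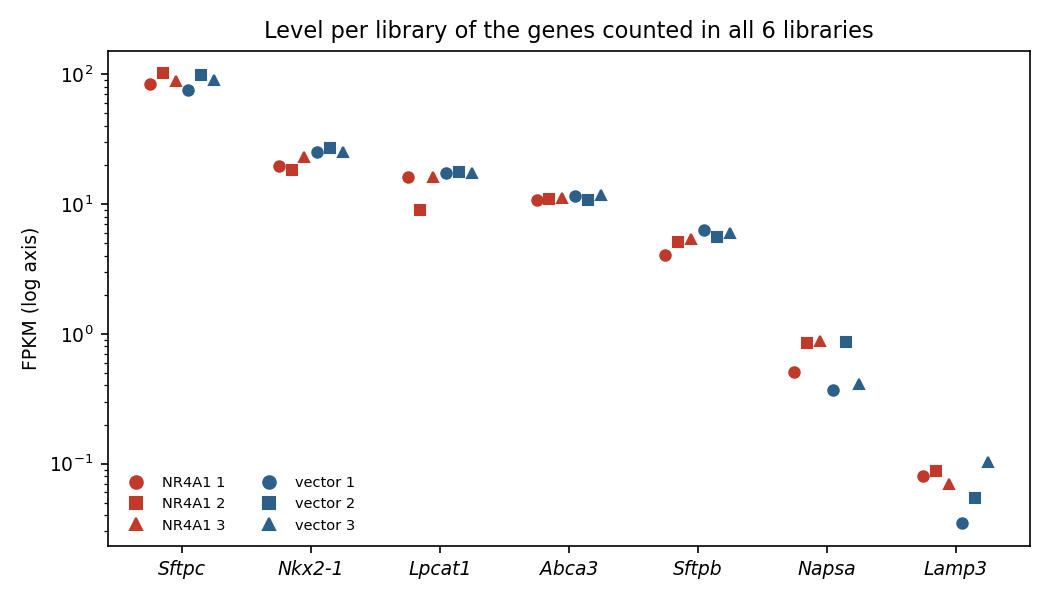
FPKM (log axis) of the 7 genes counted in every library, with red points for the 3 NR4A1 overexpression libraries, blue points for the 3 vector controls, and shapes for replicates 1, 2 and 3. Sftpc lies highest, between 76.1 and 102.0 FPKM, Lamp3 lies lowest, and in Lpcat1 the point of NR4A1 overexpression replicate 2 (9.05 FPKM) is set below the other 5.

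The remaining 4 genes were absent or close to the limit of detection. Lamp3, the lamellar body membrane protein DC-LAMP, had 4, 5 and 4 counts in the NR4A1 overexpression libraries and 2, 3 and 6 in the vector controls, 13 against 11 in all. Sftpd had 2 counts in NR4A1 overexpression replicate 1 and 0 in the other 5 libraries. Sftpa1 and Slc34a2, which encodes the apical sodium-phosphate transporter of AT2 cells, were at 0 in every library, which allows a level of up to 0.200 CPM in the shallowest one. None of these 4 genes passed the filter on low counts, and no difference between groups was detectable in them at this depth.

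The label of the cells, lung epithelial, was checked against markers of several cell types. Beside the 5 of 10 surfactant and AT2 genes with a mean of at least 1 FPKM, 3 of 15 other AT2 markers reached that level. These were Scd1, a fatty acid desaturase, at 123 FPKM, Lrp2 at 1.36 FPKM and the chemokine Cxcl15 at 1.23 FPKM. The lysozyme gene Lyz2 had 0, 20 and 0 counts in the NR4A1 overexpression libraries and 12, 1 and 1 in the vector controls, and S100g was at 0 throughout. Of 10 markers of alveolar type 1 (AT1) cells, the thin cells of gas exchange, 9 reached 1 FPKM, with a median of 17.3 FPKM over the list and the highest level in Emp2 at 232.5 FPKM. The secretoglobins Scgb1a1, Scgb3a1 and Scgb3a2, which define club cells, were at 0 in all libraries, and 3 of 9 club and ciliated markers reached 1 FPKM, led by Aldh1a1 at 16.5 FPKM. Of 8 pan-epithelial markers 5 reached 1 FPKM, or 4 without NR4A1 overexpression replicate 2, which raised Krt18. Krt19 was at 207 and Krt8 at 116 FPKM, while Epcam stayed at 0.178, Cldn7 at 0.0325 and Cldn4 at 0.00554 FPKM. Vector control replicate 1 raised 2 of these means. It had 0.626 FPKM of Epcam against 0.0565 to 0.139 elsewhere, and 0.195 of Cldn7 against 0 elsewhere. Of 8 fibroblast markers 6 reached 1 FPKM, or 4 without NR4A1 overexpression replicate 2, with Dcn the highest at 452 FPKM. Without that library Col1a1 averaged 1.22 FPKM, raised by vector control replicate 1 at 2.54 against 0.699 to 1.02 in the remaining libraries. Col1a2, Col3a1 and Pdgfra then averaged at most 0.266 FPKM, and Tcf21 was at 0. Dcn, Fbln1 and Lum were above 1 FPKM in every library. MLE-12 cells thus held transcripts of the AT2 and AT1 lists side by side, with Dcn, Fbln1 and Lum of the fibroblast list.

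**Figure D2:**
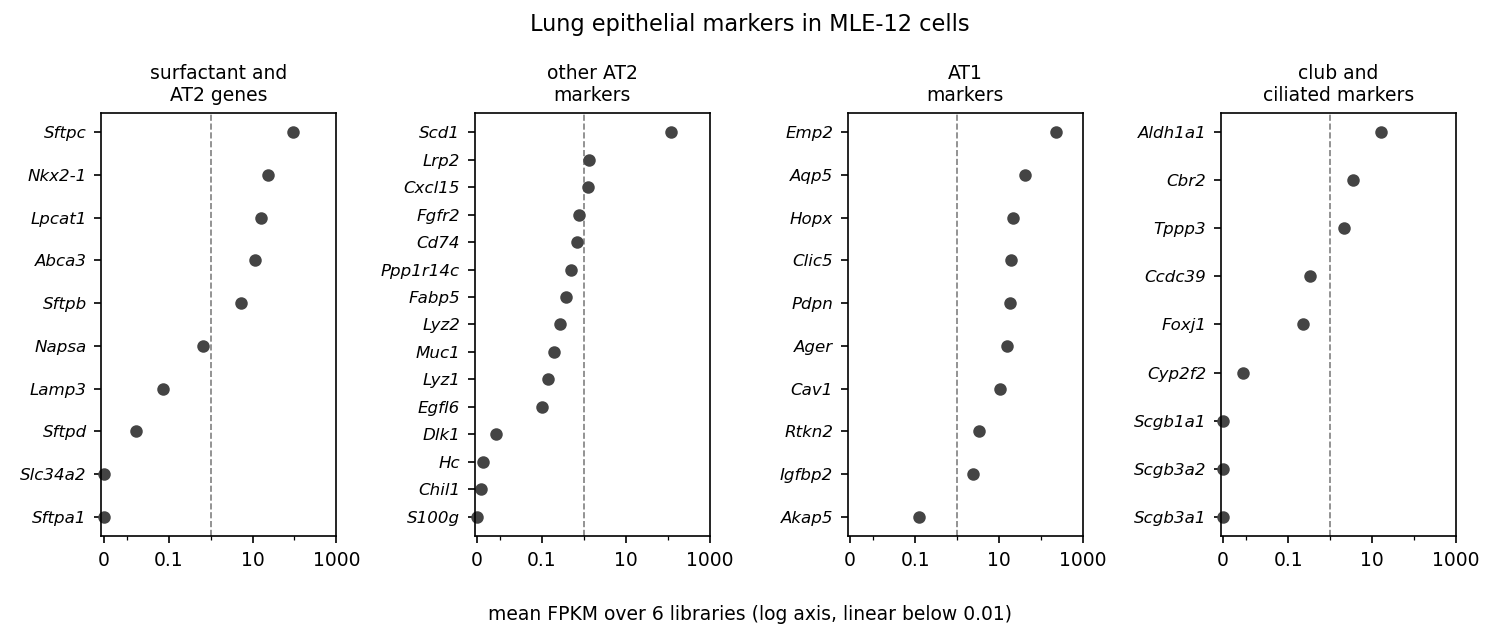
Mean FPKM over the 6 libraries (log axis, linear below 0.01) of the 10 surfactant and AT2 genes and of the other AT2, the AT1 and the club and ciliated markers, one row a gene, with a dashed line at 1 FPKM. In the AT1 panel 9 of 10 points lie right of the line, against 5 of 10 and 3 of 15 in the AT2 panels, and Sftpa1, Slc34a2, S100g and the 3 secretoglobins lie at 0.

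Sftpc encodes SP-C, the surfactant protein found in AT2 cells alone. With NR4A1 overexpression it had 1013, 1389 and 1247 counts and with the vector 1054, 1321 and 1268, or 83.9, 102.0 and 89.4 FPKM against 76.1, 99.1 and 89.7 FPKM. The groups overlapped, and the lowest library of each was replicate 1. The log2 fold change was 0.08 (SE 0.123, 3 against 3 libraries), with an adjusted p of 0.958 in edgeR's quasi-likelihood test. The 95% interval of the fold ran from 0.863 to 1.29 and left out a 2-fold change in either direction. The sign was not stable, as the log2 fold change was -0.02 without vector control replicate 1 and -0.01 without NR4A1 overexpression replicate 2.

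Sftpb encodes SP-B, which is needed for the surface film and for lamellar bodies to form. Its level was 4.08, 5.11 and 5.38 FPKM in the NR4A1 overexpression libraries, from 189, 267 and 288 counts, and 6.32, 5.53 and 6.01 FPKM in the vector controls, from 336, 283 and 326 counts. Each NR4A1 overexpression library was below each vector control, by a narrow margin between NR4A1 overexpression replicate 3 and vector control replicate 2. The log2 fold change was -0.27 (SE 0.129), with a 95% interval of -0.58 to 0.03 and an adjusted p of 0.802 in edgeR's test, so that Sftpb was not called.

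Among the lamellar body and lipid genes, Abca3 encodes the transporter that carries phospholipid into lamellar bodies. It was the most deeply counted of the 10 genes, with 1774, 2041 and 2133 counts in the NR4A1 overexpression libraries and 2206, 1951 and 2272 in the vector controls, or 10.7, 11.0 and 11.2 against 11.6, 10.7 and 11.8 FPKM. The groups overlapped, and the log2 fold change of -0.03 (SE 0.0708) had a 95% interval of -0.20 to 0.14, the narrowest of the 6 genes tested (edgeR adjusted p = 0.973). On the opposite strand the annotation places Gm25618 and D330041H03Rik over Abca3, and how the counting treated strand is not given in the sources used here.

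Lpcat1 encodes the acyltransferase that remodels phosphatidylcholine to the dipalmitoyl form. Its level was 16.3, 9.05 and 16.1 FPKM in the NR4A1 overexpression libraries and 17.3, 17.7 and 17.5 FPKM in the vector controls, from 1355, 848 and 1548 against 1648, 1623 and 1698 counts. All 3 NR4A1 overexpression libraries were below the vector controls, whose spread was small, but replicate 2, at 52.5% of the vector mean in TMM-normalized CPM, made up most of the difference, the others being at 95.3% and 93.0%. The log2 fold change was -0.32 (SE 0.212), with a 95% interval of -0.82 to 0.18 and an adjusted p of 0.868 in edgeR's test. Without NR4A1 overexpression replicate 2 it was -0.09, with an adjusted p of 0.734 in edgeR's test. That library also held the smooth muscle and endothelial transcripts given below, and their part in its Lpcat1 level was not tested.

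Nkx2-1 was the gene of the 10 with the smallest p. Its counts were 946, 1003 and 1292 with NR4A1 overexpression and 1391, 1445 and 1427 with the vector. In FPKM, these were 19.5, 18.3 and 23.1 against 25.0, 27.0 and 25.2. The groups did not overlap, and NR4A1 overexpression replicate 3 lay closest to the vector controls, at 90.4% of their mean against 77.5% and 72.4% in replicates 1 and 2. The log2 fold change was -0.32 (SE 0.103), with a 95% interval of the fold of 0.677 to 0.949, an unadjusted p of 0.0171 and an adjusted p of 0.620 in edgeR's quasi-likelihood test. Nkx2-1 was therefore not called, and its adjusted p lay between 0.357 and 0.996 over the 15 other settings tried. The gene lies at chr12:56531958-56536908 on the minus strand (GRCm38), with Gm26973 annotated opposite to it.

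The FPKM of Sftpc was 4.30, 5.56 and 3.88 times that of Nkx2-1, which activates its promoter in AT2 cells, in the NR4A1 overexpression libraries, and 3.04, 3.67 and 3.57 times with the vector. The ratio was higher in each NR4A1 overexpression library than in each vector control, by a narrow margin between 3.88 and 3.67. Nkx2-1, its denominator, was lower in each NR4A1 overexpression library, while Sftpc overlapped between the groups. The ratios of Sftpc to Sftpb, Sftpc to Abca3 and Lpcat1 to Abca3 overlapped between the groups. The difference was not tested, and the share of other gene pairs that separate in this way was not counted.

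Napsa encodes napsin A, the aspartic protease that helps to cleave the SP-B and SP-C precursors. It had 18, 34 and 36 counts in the NR4A1 overexpression libraries and 15, 34 and 17 in the vector controls. Vector control replicate 2 lay among the NR4A1 overexpression libraries, so that the groups overlapped. Its log2 fold change of 0.47 (SE 0.407) had a 95% interval of -0.49 to 1.43, the widest of the 6 genes tested, and an adjusted p of 0.910 in edgeR's test. Gm15396 is annotated over Napsa on the opposite strand, so the limit on strand given for Abca3 holds here too.

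**Figure D3:**
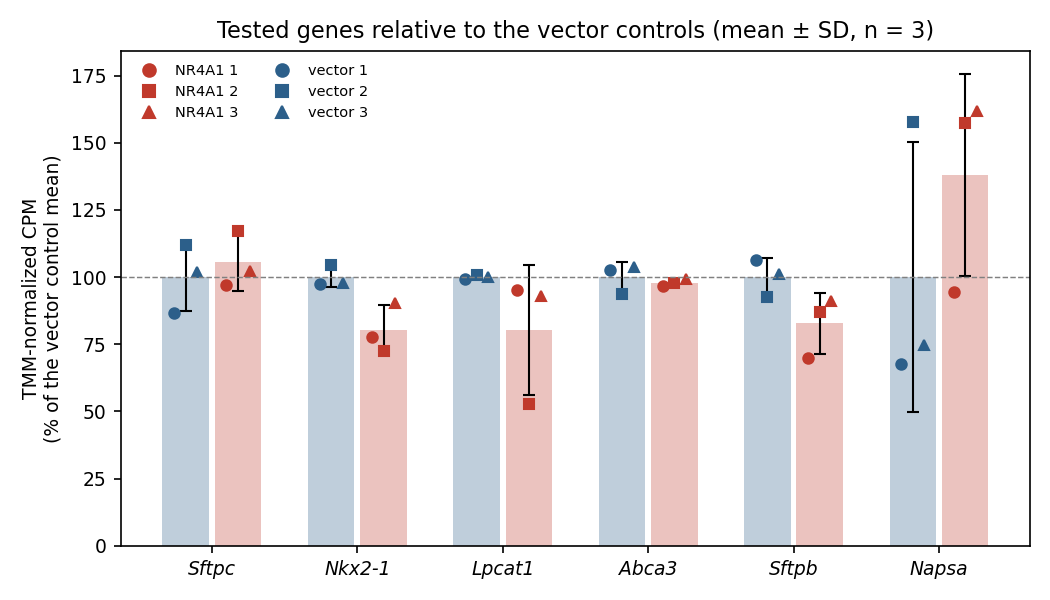
TMM-normalized CPM of the 6 tested genes as a percentage of the vector control mean, with blue bars and points for the vector controls, red for NR4A1 overexpression, bars for the mean, error bars for the SD (n = 3) and shapes for replicates 1, 2 and 3. All 3 red points of Nkx2-1, Lpcat1 and Sftpb lie under the blue points, those of Lpcat1 at 95.3%, 52.5% and 93.0%, while the points of Sftpc, Abca3 and Napsa mix.

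None of the 6 tested genes was called, where 22 of the 12941 genes of the table (0.17%) were called, all of them higher with NR4A1 overexpression. At an unadjusted p under 0.05, 1 of the 6 genes, Nkx2-1, was lower, beside 2.44% of all tested genes, and 0 were higher, beside 4.02%. DESeq2 and limma-voom also called 0 of the members. Sftpb, Lpcat1 and Nkx2-1 were lower in each NR4A1 overexpression library than in each vector control, 3 of 6 genes, against 6.22% of all tested genes, and 0 of the 6 were higher in this way, against 6.69%. The same 3 were lower in FPKM, which differs within a gene by a scaling factor per library only, against 7.8% of genes. Leaving out NR4A1 overexpression replicate 2 could not remove any of these 3, and the share of all tested genes was then 13.8%. The median log2 fold change of the 6 genes was -0.15, beside 0.01 over all tested genes, with 4 of 6 below 0 against 48.1%. Without NR4A1 overexpression replicate 2 the median was -0.06.

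**Figure D4:**
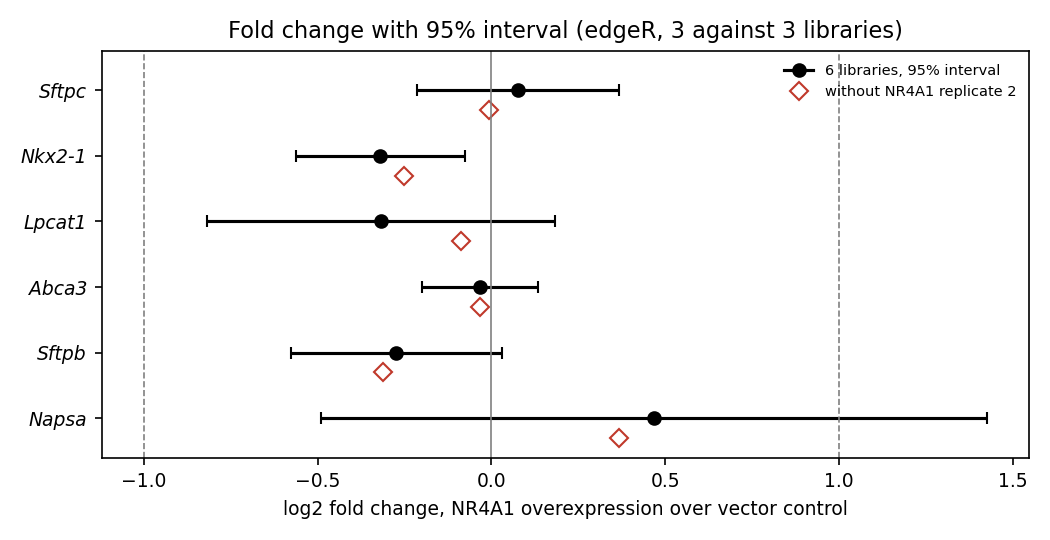
Log2 fold change of NR4A1 overexpression over vector control for the 6 tested genes, with filled points and bars for the estimate and 95% interval over 6 libraries, open diamonds for the estimate without NR4A1 overexpression replicate 2, and dashed lines at a 2-fold change. The interval of Nkx2-1 (-0.56 to -0.08) alone lies to one side of 0, the diamond of Lpcat1 moves from -0.32 to -0.09, and the interval of Napsa alone crosses a dashed line.

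For the 3 tested genes with the highest FPKM, the genes whose pattern over the 6 libraries was most like theirs were taken by Pearson's r of log2 TMM-normalized CPM among 10621 genes with a mean of at least 5 CPM, as a description. Sftpc was most like Hnrnpa1l2-ps (r = 0.994), a gene named as a pseudogene whose reads may belong to other copies, and Ier3 (r = 0.992). For Nkx2-1 they were Hmgn2-ps1 (r = 0.994), also named as a pseudogene, and Bhlhe40 (r = 0.988). For Lpcat1 they were Cd99l2 (r = 0.997) and Dscc1 (r = 0.995). With only 6 libraries, between 131 and 141 genes, or 1.23% to 1.33% of those compared, had an r above 0.9 with each of the 3.

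Most of the machinery around these genes was counted in MLE-12 cells, with a mean of at least 1 FPKM in 9 of 10 genes of phosphatidylcholine synthesis, 13 of 15 of lamellar body formation and 8 of 10 of surfactant secretion and turnover. Over the 6 libraries the same test called 0 genes of these lists. Of 10 genes of phosphatidylcholine synthesis 9 were tested, and 0 had an unadjusted p under 0.05 in edgeR's test, with a median log2 fold change of 0.13 beside 0.01 over all tested genes. The highest mean level among them was that of Prdx6, a peroxiredoxin with phospholipase activity on surfactant lipid, at 10.4 FPKM. That rank rested on NR4A1 overexpression replicate 2, with 17.99 FPKM against 8.15 to 9.69 in the other 5 libraries, whose mean of 8.89 FPKM was below the 9.52 FPKM of the acyltransferase gene Lpcat3. The largest difference was that of Pcyt1a, the rate-limiting enzyme of the pathway, at 0.84 (SE 0.486, adjusted p = 0.840 in edgeR's test). Its level of 11.2, 10.3 and 10.4 FPKM in the NR4A1 overexpression libraries matched that of vector control replicate 1, at 11.5, while vector control replicates 2 and 3 were at 2.82 and 3.72 FPKM. The call depended on vector control replicate 1. Without it Pcyt1a was called, with a log2 fold change of 1.72 and an adjusted p of 0.0377 in edgeR's test, while the adjusted p lay between 0.497 and 0.9995 in the other settings that kept that library. 2210020O09Rik and Slc51a are annotated over Pcyt1a on the opposite strand, and how the counting treated strand is not given.

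Of 15 genes of lamellar body formation and protein processing 14 were tested and 0 called, with a median log2 fold change of -0.02. Lamp1, the lysosomal membrane protein, was the highest at 399.9 FPKM, with a log2 fold change of -0.05 that was -0.11 without NR4A1 overexpression replicate 2. Rab32, a small GTPase of lysosome-related organelles, had the largest log2 fold change, 2.48 (adjusted p = 0.796 in edgeR's test), from 143 counts in NR4A1 overexpression replicate 2 and 4 to 12 in the other 5 libraries. Without that library it was -0.19. Hps6, a subunit of a complex of lysosome-related organelles, was the gene of the list with an unadjusted p under 0.05 and was picked out after its values were seen. It had 7.78, 8.02 and 7.57 FPKM in the NR4A1 overexpression libraries against 9.54, 10.3 and 9.01 FPKM, a log2 fold change of -0.28 (SE 0.0853, adjusted p = 0.564 in edgeR's test).

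Of 10 genes of surfactant secretion and turnover 8 were tested and 0 called, with a median of -0.09. Anxa7, an annexin of membrane fusion, was the highest at 27.8 FPKM, with a log2 fold change of -0.04 that was -0.15 without NR4A1 overexpression replicate 2. Csf2ra, a receptor subunit for GM-CSF, had the largest difference, -0.66 (SE 0.383, adjusted p = 0.840 in edgeR's test), on 15 to 49 counts. Without NR4A1 overexpression replicate 2 it was -1.16 (adjusted p = 0.413 in edgeR's test). The phospholipid flippase gene Atp8a1, picked out after its values were seen, was the gene of the list with an unadjusted p under 0.05, at -0.21 (adjusted p = 0.694 in edgeR's test).

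All 15 regulators of surfactant genes were tested, 14 of them had a mean of at least 1 FPKM, and 0 were called, with a median of 0.06. At an unadjusted p under 0.05, 2 were higher and 2 lower, beside 4.02% and 2.44% of all tested genes. Thrb, a thyroid hormone receptor, had the largest log2 fold change, 0.97 (SE 0.231, adjusted p = 0.330 in edgeR's test). It had 85, 102 and 88 counts with NR4A1 overexpression and 48, 37 and 64 with the vector, groups that did not overlap, at a level of 0.155 to 0.418 FPKM. Without NR4A1 overexpression replicate 2 Thrb was at 0.91, and Klf5, a Krüppel-like factor, had the largest difference at -1.03. Etv5, a factor that maintains AT2 cells, was picked out after its values were seen, with 5.57, 5.61 and 5.64 against 4.33, 4.57 and 4.94 FPKM and a log2 fold change of 0.30 (SE 0.0789, adjusted p = 0.402 in edgeR's test). Of its 50-base stretches 24.5% also occur in Gm4798, so that its counts are uncertain. Srebf2, a regulator of sterol synthesis and the highest of the list at 79.1 FPKM, had a log2 fold change of -0.22, and Srebf1, a regulator of fatty acid synthesis, one of -0.21 (adjusted p = 0.688 and 0.673 in edgeR's test).

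**Figure D5:**
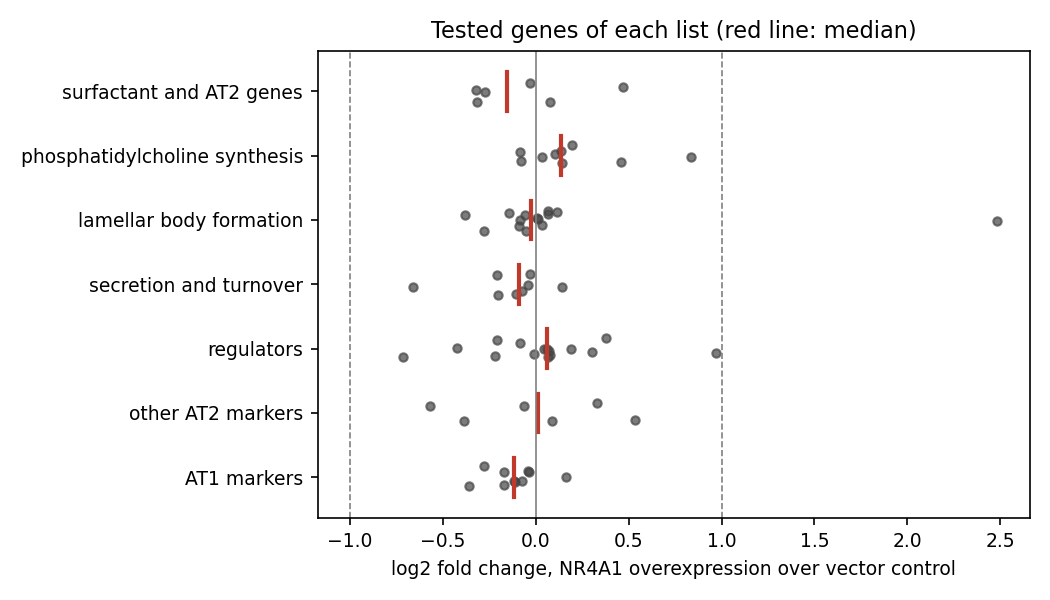
Log2 fold change of NR4A1 overexpression over vector control for each tested gene of the surfactant and AT2 genes and of 6 lists of related genes (points, spread vertically at random), with a red line at each list's median and dashed lines at a 2-fold change. The medians lie between -0.15 and 0.13, and the single point beyond a dashed line is Rab32 at 2.48.

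The other cell identity lists likewise held 0 called genes over the 6 libraries. Of the other AT2 markers 6 were tested, with a median log2 fold change of 0.01. Scd1 was at 0.08, or 0.15 without NR4A1 overexpression replicate 2, with reads that it may share with other Scd genes, and Cd74, which carries the largest difference at -0.57 (adjusted p = 0.839 in edgeR's test), had 10, 21 and 23 counts against 26, 24 and 34. Of the 10 AT1 markers 9 had a log2 fold change below 0, against 48.1% of all tested genes, with a median of -0.12. That count depended on the libraries kept. Without both NR4A1 overexpression replicate 2 and vector control replicate 1, Akap5, Rtkn2, Aqp5 and Clic5 were above 0, at 0.27, 0.11, 0.057 and 0.00098. The other AT1 markers stayed below 0, and the median was -0.11. The summed FPKM of the list was 336.8 to 359.0 in the NR4A1 overexpression libraries against 382.7 to 388.1 in the vector controls, most of it Emp2 at 210.9 to 236.7 against 240.2 to 245.9 FPKM. Ager, which encodes the receptor RAGE and marks AT1 cells, had 13.5, 14.5 and 13.7 FPKM against 16.7, 20.5 and 17.3 FPKM. Its log2 fold change was -0.36 (SE 0.0950, adjusted p = 0.414 in edgeR's test), the smallest p of that list, and Emp2, the highest of the list, was at -0.11. Of the 9 club and ciliated markers 5 were tested, with a median of -0.06, Aldh1a1 at 0.39 and Tppp3, at -0.41, the largest difference. Without NR4A1 overexpression replicate 2, which had 1001 counts of Aldh1a1 against 405 to 555, these were -0.07 and -0.20, and Cbr2 had the largest difference at -0.37. Of the 8 pan-epithelial markers 5 were tested, with a median of -0.12 and Krt19 at -0.25. Krt18 at 2.61 rested on NR4A1 overexpression replicate 2, with 164 counts against 2 to 21, and was 0.18 without it. At an unadjusted p under 0.05 in edgeR's test 2 of the 5 were lower, Krt19 and Cdh1, beside 2.44% of all tested genes. Cdh1, the gene of E-cadherin, was picked out after its values were seen, at -0.27 (adjusted p = 0.639 in edgeR's test).

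Markers of cells other than epithelium were measured beside these results. In NR4A1 overexpression replicate 2 all 6 smooth muscle markers and 6 of 7 endothelial markers had their highest level, the smooth muscle gene Acta2 with 3841 counts against 3 to 15 in the other 5 libraries. The summed FPKM of the smooth muscle list was 0.504 to 181.3 in the NR4A1 overexpression libraries and 0.799 to 1.52 in the vector controls, and that of the endothelial list was 0.971 to 16.1 and 0.905 to 1.01. The fibroblast list summed to 454.6 to 484.8 FPKM against 445.3 to 508.1, most of it Dcn at 452 FPKM, and had a median log2 fold change of 2.52 over 7 tested genes that was -0.83 without that library. Its largest difference was that of the collagen gene Col1a2, at 3.93 with the library and -1.70 without it. Among the other 5 libraries vector control replicate 1 stood apart in turn, with 284 counts of Col1a2 against 10 to 45, and had the highest level of 4 of the 8 fibroblast markers. Vector control replicate 1 also stood apart in AT2 and epithelial markers. It held 18 counts of Lyz1 and 11 of Cldn7, which were at 0 in all other libraries, and 22 of Epcam against 2 to 5. Without both libraries the median of the fibroblast list was -0.0023 and Col1a2 was at 1.38 (adjusted p = 0.604 in edgeR's test). The immune list summed to 1.03 to 1.92 FPKM against 0.949 to 1.69, with Laptm5 at 0 in every library, Ptprc at a mean of 0.000373 FPKM, and the tested Cd68 at -0.18, or -0.41 without that library. In the tested endothelial gene Tek the log2 fold change was -0.02, or 0.11 without that library. Acta2, at 6.51 (adjusted p = 0.694 in edgeR's test) and -1.41 without that library, was the tested smooth muscle gene. Among the surfactant and AT2 genes, Sftpc alone had its highest level in that library, and the part of these other transcripts in the levels of Sftpc and Lpcat1 there was not tested.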

How the data were processed

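Total RNA of MLE-12 cells was sequenced as strand-specific libraries, 3 with NR4A1 overexpression and 3 vector controls, grouped by the submitters' labels. The authors deposited a single table of read counts and FPKM values per gene and library. The submitters' processing notes list HISAT2 2.0.4 and GRCm38.p4, and the counting program, annotation and strand setting are not given in the sources used here. Counts divided by FPKM followed the library totals in 10433 genes, so FPKM is relative to the library total and a fixed gene length. Of 34267 identifiers shared with GENCODE M21, 80.8% had the same coordinates, so positions are given on GRCm38. No pair of libraries of a group differed as little as counting error (chi-square per degree of freedom 9.36 to 41.8).

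Counts were normalized by TMM, filtered with filterByExpr and tested over 12941 genes by the quasi-likelihood method of edgeR 4.0.16 (R 4.3.3), adjusted after Benjamini and Hochberg. Levels are FPKM, and percentages of the vector mean are TMM-normalized CPM. Intervals are at the 95% level. The alternatives were DESeq2 1.42.0, limma-voom (limma 3.58.1), no TMM factors, median-ratio size factors, a filter at a mean count of 10 or none at all, a replicate block, limma on log2(FPKM + 1) and on log2(FPKM + 0.1) for genes averaging 1 FPKM or more in either group, each library left out, and other call thresholds. The counts of genes lower in every NR4A1 overexpression library, by FPKM and without replicate 2, and the fit of the lists without NR4A1 overexpression replicate 2 and vector control replicate 1 were chosen after seeing the data. Motifs were searched with Python 3.11.15.

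The genes and lists were chosen with earlier results of these data known. The text names the genes counted in every library and the others by their counts, and from each other list the genes called, otherwise the highest in FPKM and the one with the largest log2 fold change. Further markers are named to check the cell type, and Hps6, Atp8a1, Etv5, Srebf1 and Cdh1 were picked after their values were seen.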

Additional observations from a re-analysis of the deposited data

How the results depend on the processing

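No surfactant or AT2 gene was called under the settings tried, which tested 6 of the 10 genes, or 5 in FPKM and 8 without a count filter. Among the genes of the other lists, Pcyt1a was called without vector control replicate 1 (1.72, adjusted p = 0.0377 in edgeR's test). It was also called without both that library and NR4A1 overexpression replicate 2 (1.74, adjusted p = 0.00495 in edgeR's test). No other gene of these lists was called at an adjusted p below 0.05, while Acta2 passed at an unadjusted p with at least a 2-fold change. The log2 fold changes of Nkx2-1, Lpcat1, Sftpb and Abca3 kept their sign throughout, and so did that of Napsa where it was tested. That of Sftpc was 0.08 and turned to -0.0061 without NR4A1 overexpression replicate 2 and to -0.0177 without vector control replicate 1. With 1 library left out it lay between -0.0177 and 0.164 for Sftpc, -0.46 and -0.09 for Lpcat1, -0.42 and -0.25 for Nkx2-1, -0.36 and -0.17 for Sftpb, and 0.25 and 0.95 for Napsa. The median over the tested genes, -0.15, lay between -0.203 and -0.0596 with 1 library left out. It was -0.253 by limma on log2(FPKM + 1) and -0.296 on log2(FPKM + 0.1), where Napsa was under the FPKM minimum and 5 genes were left.

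Over the whole table, 22 genes were called higher and 0 lower. With 1 library left out, 3 to 25 were called higher and 0 to 3 lower. DESeq2 called 71 higher and 2 lower, a mean of at least 10 counts gave 8 higher, log2(FPKM + 1) 7 higher and log2(FPKM + 0.1) 8 higher. Without a fold threshold 1 gene was lower, and at an unadjusted p with at least a 2-fold change 144 were higher and 17 lower, among them 1 smooth muscle gene, Acta2. The cause of these differences was not tested.

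Around the group means, libraries with the same number correlated at -0.00574, 0.00793 and 0.204, and libraries with different numbers at -0.342 to 0.231. The same-numbered values lay within the range of the others, so the numbers were not treated as pairing the libraries. The labels do not say whether libraries with the same number were made together. In the fit with the replicate block 5 genes were called higher, and the adjusted p of the genes lay between 0.470 (Nkx2-1) and 0.886 (Abca3).

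Sftpa1 and Slc34a2, at 0 counts, could not be compared between groups, and Sftpd and Lamp3 were tested without the count filter only.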
